A study of Mus musculus with 15 samples.

Results

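The oxidative phosphorylation genes of mouse liver were followed across 5 groups of livers: 13 genes encoded by the mitochondrial genome and 88 encoded in the nucleus. They were found by gene name (mt-Nd, mt-Co, mt-Cytb and mt-Atp; Nduf; Sdha to Sdhd; Uqcr; Cox4 to Cox8; Atp5) among protein-coding genes, with at least 10 counts in at least 3 of 15 libraries. Of 104 protein-coding genes with such a name, 101 reached the minimum, out of 15934 genes of any kind that reached it and 26839 genes in all. The other 3 were the muscle-type or inducible cytochrome oxidase isoforms Cox4i2, Cox6a2 and Cox8b, whose highest counts in any library were 8, 11 and 14. By complex, 51 genes belonged to complex I (7 mitochondrially encoded, 7 nuclear core subunits, 29 nuclear accessory subunits and 8 Ndufaf assembly factors). A further 4 belonged to complex II, 9 to complex III, 18 to complex IV (Ndufa4 and its paralog Ndufa4l2 were counted here) and 19 to complex V. Cytochrome c1 (Cyc1) and cytochrome c (Cycs) do not carry such a name and were handled as a separate list.

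All libraries came from livers of male C57BL/6J mice, poly(A)-selected and stranded, with 3 libraries per group. The chow group had received AAV8-TBG-GFP, an adeno-associated virus whose thyroxine binding globulin promoter is active in hepatocytes, and standard chow with normal water for 16 weeks. The other 4 groups had received the FPC NASH diet, used to produce steatohepatitis, with sugar water for 16 weeks. They carried AAV8-TBG-GFP (NASH GFP), AAV8-TBG-Activin A, AAV8-H1-shRNA scramble, or AAV8-H1-shRNA against Gpnmb, a hairpin under a promoter that is not restricted to hepatocytes. Every group, the chow group included, had therefore received a virus. Whether each library is its own animal is not in the labels. The p-values therefore speak of the spread among libraries, some of which may be technical.

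The respiratory chain passes electrons from NADH (complex I) and succinate (complex II) by way of ubiquinone to complex III, then through cytochrome c to complex IV, and ATP synthase (complex V) uses the proton gradient that complexes I, III and IV build. All complexes but II combine subunits made inside the mitochondrion from polycistronic mitochondrial transcripts with subunits imported from the cytosol. Hepatocytes are rich in mitochondria, where they burn fatty acids.

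Gene positions are those of the deposited tables (GRCm38). Levels are CPM, counts scaled to the size of the library, with TMM factors (which set most genes to no change) over all 15 libraries. Library totals ran from 15276879 to 23467867 counts. The targeted genes went with the labels: Gpnmb stood at 31.4 ± 5.05 CPM (SD, n = 3) in scramble and 2.02 ± 1.13 CPM in Gpnmb hairpin livers. Inhba, which encodes the subunit of Activin A, stood at 8.05 ± 0.114 CPM in NASH GFP and 24.9 ± 0.924 CPM in Activin A livers. Each was also called in the other comparison: Gpnmb, at 30.6 ± 8.89 CPM in NASH GFP livers, was lower in Activin A livers (log2 fold change -2.93, edgeR adjusted p = 0.00073), and Inhba stood at 10.4 ± 1.68 CPM in hairpin against 5.48 ± 0.677 CPM in scramble livers (0.92, edgeR adjusted p = 0.00325). The tissue carried its defining transcripts: 10 hepatocyte markers summed to 97723 to 128211 CPM in chow and 65294 to 80598 CPM in NASH GFP livers.

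The mitochondrial genes fell into a set of 7 abundant genes and a set of 6 scarce ones. In chow livers mt-Co1, the catalytic subunit of complex IV, stood at 21929, 34448 and 27173 CPM, and mt-Cytb, cytochrome b of complex III, at 9630.0, 13083 and 11059 CPM. The complex I subunits mt-Nd1, mt-Nd2, mt-Nd4 and mt-Nd5 each lay between 4925 and 9342 CPM, and mt-Nd6, from the other strand, between 2227 and 3165 CPM. By contrast mt-Co2, the copper-bearing subunit of complex IV that receives electrons from cytochrome c, stood at 85.8, 88.0 and 128 CPM. Its partner mt-Co3 stood at 79.2, 87.3 and 123 CPM, mt-Atp6, the proton channel subunit of ATP synthase, at 55.7, 55.0 and 62.9 CPM, and mt-Nd4l at 20.8, 17.1 and 14.9 CPM. mt-Nd3 lay at 60.2, 79.3 and 118 CPM and mt-Atp8 at 1.15, 1.59 and 0.689 CPM. These are neighbours on 1 polycistronic transcript, so their levels are given with the sequence each shares with other genes.

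**Figure D1:**
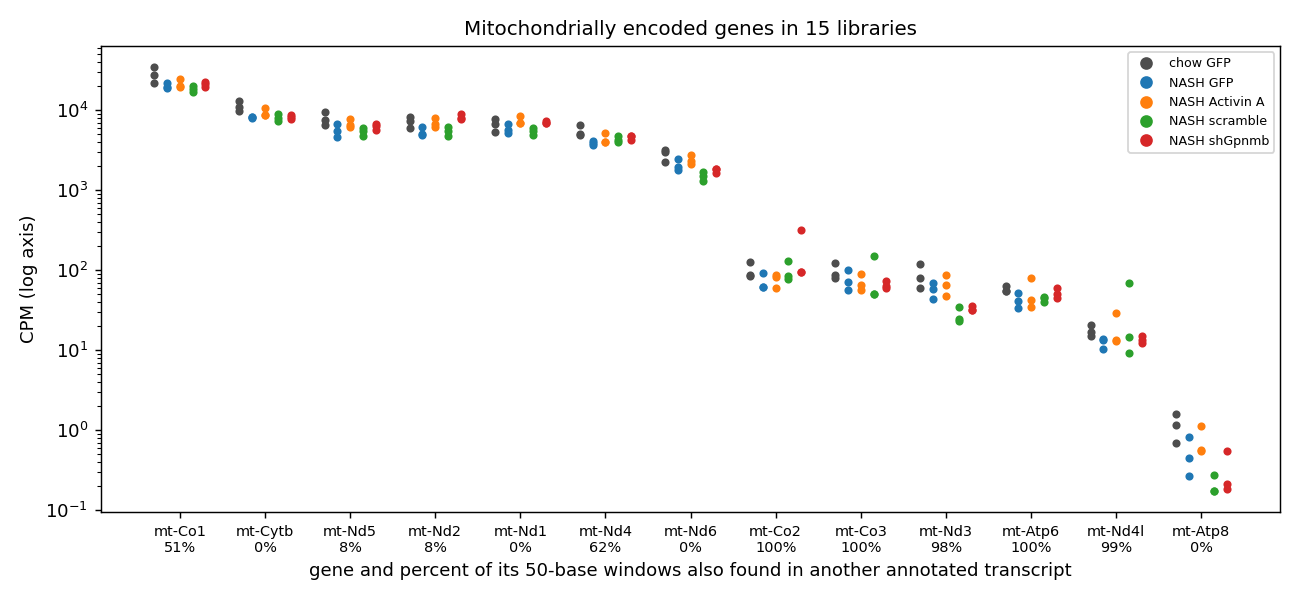
Level of each mitochondrially encoded gene in each of the 15 libraries (CPM, log axis; 1 point per library, coloured by group), with the percent of its 50-base windows that also occur in another annotated transcript written under its name. The 5 genes with nearly all windows shared reach at most 315 CPM, and the 7 abundant genes lie at 1314 CPM or above.

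Each of the 5 scarce genes mt-Co2, mt-Co3, mt-Atp6, mt-Nd4l and mt-Nd3 had a copy in a cluster of pseudogenes on chromosome 1 (GRCm38, minus strand), where a stretch of mitochondrial DNA sits in the nuclear genome. The aligned parts were 100% identical for mt-Co2 (Gm28661), mt-Co3 (Gm28437), mt-Atp6 (Gm10925) and mt-Nd4l (Gm10222), and 99.71% identical for mt-Nd3 (Gm28438). The mt-Atp6 stretch at MT:8227-8286 and the Gm10925 stretch at chr1:24614292-24614351, minus strand, show what an identical copy looks like, with 0 of 60 bases differing.
mt-Atp6: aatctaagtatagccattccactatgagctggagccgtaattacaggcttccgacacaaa
Gm10925: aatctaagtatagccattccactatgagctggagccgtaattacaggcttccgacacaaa
The annotated copy of mt-Co1, Gm29216, is partial and aligns over 483 of its 1545 bases, of which 1 differs (99.79% identity). Its 5′ end, at chr1:24616138-24616197, minus strand, is shown against MT:6381-6440, and capitals mark the 6 of 60 bases that differ. Most of these capitals lie at the very edge of the copy, before the aligned part begins.
mt-Co1: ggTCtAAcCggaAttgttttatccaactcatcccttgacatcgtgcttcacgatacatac
Gm29216: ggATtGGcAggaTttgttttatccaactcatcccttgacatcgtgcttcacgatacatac
Past these bases the stretches shown are identical. mt-Nd4 shared 62.2% and mt-Co1 51.1% of 50-base windows with another transcript, while mt-Nd1, mt-Nd6 and mt-Cytb shared 0. The scarce 5 genes made up 0.394% to 0.831% of the mitochondrial counts of a library. Over all libraries mt-Co2 held 28512 counts against 23416 for Gm28661, and mt-Atp6 held 13849 against 15035 for Gm10925. The sources used here do not give how reads that fit several places were counted, so the levels of these 5 genes are uncertain, as are parts of mt-Co1 and mt-Nd4. mt-Atp8 was scarce too, with 0 windows shared with any annotated transcript. The part of the copies in the low counts was not tested. Single libraries stood apart in this set: mt-Nd4l reached 70.0 CPM in scramble 2 against 14.8 and 9.21 CPM in the other scramble libraries, and mt-Co2 reached 315 CPM in hairpin 1 against 96.0 and 95.0 CPM.

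Per kilobase of gene length in chow livers, mt-Co1 had the highest level of all members, 18026 ± 4069 CPM per kb (SD, n = 3), ahead of mt-Cytb at 9840.3 ± 1516 and mt-Nd2 at 6949 ± 1132 CPM per kb. The nuclear members lay far lower. By the length in the deposited table, the highest of each complex were Cox6a1 (complex IV) at 483 ± 130.4 CPM per kb, the ATP synthase alpha subunit Atp5a1 at 363 ± 29.4, the Rieske iron-sulfur protein Uqcrfs1 of complex III at 189.5 ± 45.7, the complex II membrane anchor Sdhd at 153 ± 31.1 and the complex I subunit Ndufb11 at 119 ± 35.6 CPM per kb. That order depends on the length used. Atp5b has 4237 bases there but 1916 in its longest annotated transcript, against 3135 and 2674 for Atp5a1. Its chow counts were higher, 20798, 16997 and 21816 against 17503, 14715 and 18017. Sdha of complex II (4126 and 2900 bases) and Uqcrq of complex III (1831 and 1521) also have shorter transcripts. Levels per transcript length were not computed. Among isoform pairs, the form usual in liver was the higher one. Cox7a2 stood at 127 ± 34.9 CPM per kb against 1.04 ± 0.568 for the heart and muscle form Cox7a1, and Ndufa4 at 208 ± 67.6 against 1.80 ± 0.402 for the hypoxia-induced Ndufa4l2. The ubiquitous Cox6b1 stood at 219 ± 63.8 and the testis form Cox6b2 at 0.184 ± 0.273 CPM per kb, which passed the count filter in the vector control comparison alone. Of the genes for the ATP synthase c subunit, which encode the same mature protein, Atp5g3 stood at 142 ± 31.9, Atp5g2 at 46.2 ± 7.27 and Atp5g1 at 22.7 ± 5.29 CPM per kb, and no value of Atp5g3 overlapped the others. Atp5g1 held more counts than Atp5g2 in each chow library (1852, 1127 and 1989 against 1235, 882 and 1315). Its lower value per kb follows from the 4912 bases it was divided by, against 1675 for Atp5g2.

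On the NASH diet the TMM-scaled sums and the medians of the chain's transcripts lay lower than on chow in both genomes, and 3 single genes fell. The 13 mitochondrial genes summed to 57767, 82611 and 67641 CPM in chow and 49357, 48271 and 55952 CPM in NASH GFP livers. The 88 nuclear genes summed to 11698, 11115 and 15766 CPM in chow and 10068, 11072 and 9793 CPM in NASH GFP livers. On this scale neither sum overlapped between the groups, with a narrow gap for the nuclear sum: the lowest chow and highest NASH GFP nuclear sums were 11115 and 11072 CPM. Chow 2 was the highest library for the mitochondrial sum and the lowest chow library for the nuclear sum, while chow 3 was the highest for the nuclear sum. As a plain share of library counts, both overlapped. The nuclear genes held 1.07, 0.964 and 1.29% in chow and 1.10, 1.15 and 1.01% in NASH GFP livers, with a log2 ratio of the means of -0.03 against -0.32 for the scaled sums. The mitochondrial genes held 5.29, 7.16 and 5.51% and 5.39, 5.02 and 5.77%, with a log2 ratio of -0.15 against -0.44. The ratio of mitochondrial to nuclear counts, which needs no scaling between libraries, was 4.94, 7.43 and 4.29 in chow and 4.90, 4.36 and 5.71 in NASH GFP livers and overlapped.

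**Figure D2:**
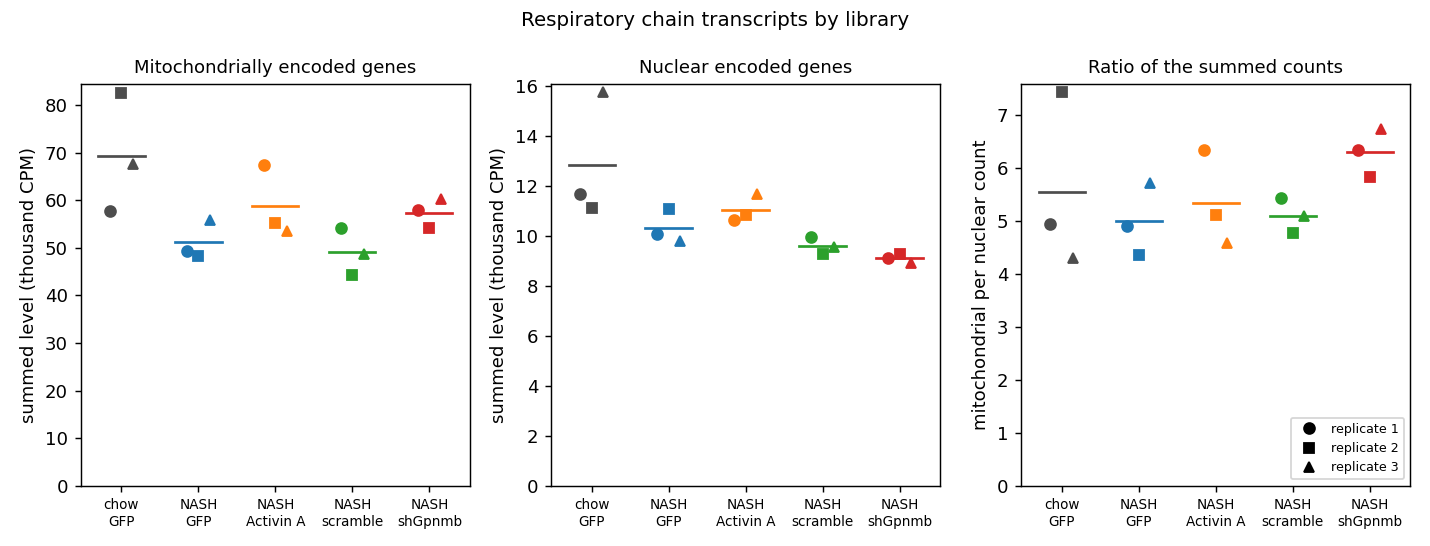
Summed level of the 13 mitochondrial genes (left, CPM over 1000), of the 88 nuclear genes (middle, CPM over 1000) and the ratio of their summed counts (right) in each library, with replicate shown by marker and group mean by a line. The chow libraries spread widest, and the 3 hairpin livers have ratios of 6.34, 5.83 and 6.73, all above the 3 scramble livers.

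Of 100 members tested for the diet, 3 passed the test (edgeR, Benjamini-Hochberg adjusted p under 0.05), all lower, against 5.82% of all genes called lower and 17.0% in either direction. At an unadjusted p under 0.05, 0 were higher. Ndufb5, a membrane arm subunit of complex I (chr3:32736990-32751566, plus strand, overlapping Mrpl47 on the other strand), stood at 72.7, 79.6 and 93.8 CPM in chow and 48.2, 60.0 and 49.6 CPM in NASH GFP livers, and its log2 fold change was -0.60 ± 0.15 (SE, edgeR adjusted p = 0.0215). Atp5g1 (chr11:96068852-96075670, minus strand) stood at 113, 85.1 and 137 CPM and 64.8, 78.7 and 62.3 CPM, and its log2 fold change was -0.67 ± 0.19 (SE, edgeR adjusted p = 0.0335). The complex I assembly factor Ndufaf8 (chr11:120098928-120100705, plus strand) stood at 18.5, 18.1 and 20.2 CPM and 13.5, 12.5 and 11.3 CPM, with a log2 fold change of -0.57 ± 0.16 (SE, edgeR adjusted p = 0.0330). In all 3 genes the groups did not overlap. Over all members tested, called or not, 96 of 100 had a log2 fold change under 0, 41 had an unadjusted p under 0.05 (all 41 lower), and 39 did not overlap (all lower, against 16.4% of all genes lower and 35.4% in either direction). No share of all genes is given at the unadjusted threshold, so the 41 have no background to be read against. The median was -0.44 for mitochondrial and -0.40 for nuclear members, against -0.01 for all genes tested. Cytosolic ribosome genes had a median of -0.30, mitochondrial ribosome genes -0.21, tricarboxylic acid cycle genes 0.19 and mitochondrial carriers 0.48. All protein-coding genes at or under the nuclear members' median length of 1701 bases had -0.16, and longer ones 0.02. Nuclear members in these length classes had -0.45 and -0.32. The part of transcript length was not tested.

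The nuclear medians by complex were -0.43 for complex I, -0.22 for II, -0.31 for III, -0.35 for IV and -0.43 for V. Among the complex II subunits, the flavoprotein Sdha had a log2 fold change of -0.15 ± 0.15 (SE), the iron-sulfur subunit Sdhb -0.52 ± 0.17, and the membrane anchors Sdhc -0.21 ± 0.17 and Sdhd -0.24 ± 0.17; none of these passed the test. The smallest p in the classes with no call belonged to Ndufs3 of the complex I core at -0.53 ± 0.17 (SE, edgeR adjusted p = 0.0594), Uqcrb of complex III at -0.50 ± 0.19 (SE, edgeR adjusted p = 0.0995) and Cox7b of complex IV at -0.62 ± 0.20 (SE, edgeR adjusted p = 0.0624). Of the mitochondrial genes none passed; mt-Nd1 had -0.14 ± 0.20 (SE, edgeR adjusted p = 0.691), and mt-Cytb -0.44 ± 0.18 (SE, edgeR adjusted p = 0.133), and the 11 others ran from -1.11 (mt-Atp8) to -0.29 (mt-Co3). These counts turned on single libraries and on the fit. Ndufb5 lost its call without NASH GFP 1 or NASH GFP 3, and Atp5g1 and Ndufaf8 lost theirs when any 1 library except chow 2 was left out. Without chow 2 the test called 23 members lower, without NASH GFP 1 or NASH GFP 3 it called 0, without chow 1 or chow 3 it called 1, and the fit over all 15 libraries called 48 lower of 100. Scaled by library size alone, the medians were -0.19 for mitochondrial and -0.13 for nuclear members, and the median of all genes was 0.24. In the same comparison 10 of 12 macrophage markers rose, with a summed level of 183 to 282 CPM in chow and 638 to 775 CPM in NASH GFP livers, and 4 of 10 hepatocyte markers fell, with none of either list at 0 counts. Of 9 stellate cell markers, 8 rose as well. The part of these cells in the members' values was not tested. In bulk tissue, fewer hepatocytes and less transcript per hepatocyte cannot be told apart.

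**Figure D3:**
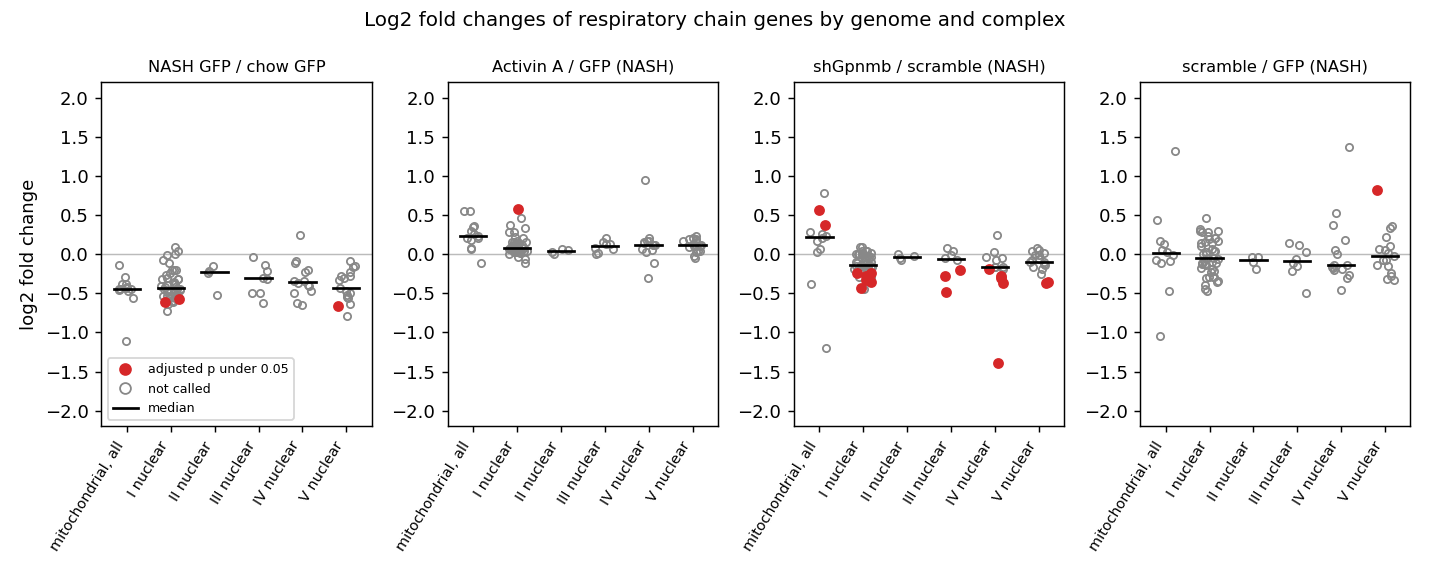
Log2 fold change of each tested member in the diet, Activin A, Gpnmb hairpin and vector control comparisons, split into all mitochondrially encoded genes and the nuclear genes of complexes I to V (filled points: adjusted p under 0.05; open points: not called; lines: medians). The diet panel lies mostly below 0 in every column, while in the hairpin panel the mitochondrial median is 0.22 and the nuclear medians lie below 0.

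Each NASH diet group was then set against the same chow libraries in a fit over all 15 libraries, so these contrasts share their control and are set side by side with no test between them. In NASH GFP livers 48 of 100 members were lower and 0 higher (12.9% of all genes lower, 28.7% in either direction), in Activin A livers 23 lower and 1 higher (11.8% lower, 23.7% in either direction), in scramble livers 56 lower and 0 higher (17.4% lower, 34.3% in either direction), and in Gpnmb hairpin livers 66 lower and 0 higher (13.7% lower, 25.9% in either direction). The nuclear medians were -0.43, -0.30, -0.45 and -0.56 in that order, and the mitochondrial medians -0.48, -0.27, -0.40 and -0.37. Of 13 mitochondrial members, 5 were lower in NASH GFP, 0 in Activin A, 7 in scramble and 4 in hairpin livers. Cox5b, a nuclear complex IV subunit, had log2 fold changes of -0.50, -0.44, -0.96 and -1.26 in the same order, and Ndufs6, a complex I accessory subunit, -0.49, -0.60, -0.96 and -1.12.

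Under Activin A the members lay slightly above the NASH GFP livers, and 1 passed the test. Ndufaf4, an assembly factor of complex I (chr4:24898083-24905001, plus strand), stood at 36.0, 32.4 and 26.5 CPM in NASH GFP and 53.4, 43.7 and 45.5 CPM in Activin A livers, with a log2 fold change of 0.59 ± 0.13 (SE, edgeR adjusted p = 0.0332). It was the 1 member called of 100 tested, against 1.66% of all genes called higher and 5.52% in either direction, and 0 members were lower, by edgeR or DESeq2, where 3.86% of all genes were. Ndufaf4 lay at 30.3, 24.8 and 36.5 CPM in chow, so the Activin A livers were above chow too. Its call was lost when NASH GFP 2 or any 1 of the 3 Activin A libraries was left out. Without an Activin A library 0 members passed, and without NASH GFP 3, 4 did. The log2 fold change was above 0 for 92 of 100 members. The median was 0.23 for mitochondrial and 0.09 for nuclear members, against 0.00 for all genes. An unadjusted p under 0.05 was found for 6 members, all higher, with no share of all genes given at that threshold. Of the members, 15 were higher without overlap, against 12.6% of all genes higher and 25.9% in either direction. The mitochondrial sum was 67428, 55302 and 53458 CPM and overlapped the NASH GFP livers; without Activin A 1, its highest library, the mitochondrial median was 0.077. The nuclear sum was 10632, 10836 and 11668 CPM and overlapped as well. Among the mitochondrial genes mt-Nd2 had 0.36 ± 0.13 (SE, edgeR adjusted p = 0.158) and mt-Nd1 0.35 ± 0.14 (SE, edgeR adjusted p = 0.180). The 4 complex II subunits ran from 0.01 to 0.07, and in the complex I core the smallest p belonged to Ndufs7, a carrier of an iron-sulfur cluster, at 0.37 ± 0.12 (SE, edgeR adjusted p = 0.124). In these livers 8 of 12 macrophage markers fell, to a sum of 307 to 395 CPM, and 1 of 10 hepatocyte markers, Ttr, rose. The biliary markers summed to 129 to 299 CPM in NASH GFP and 51.6 to 56.4 CPM in Activin A livers (1 of 5 fell), and the stellate markers to 449 to 676 and 425 to 449 CPM (4 of 9 fell). No marker of these 4 lists was at 0, and their part was not tested.

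Under the Gpnmb hairpin 2 of 12 mitochondrial genes tested rose, and 16 nuclear members and 0 mitochondrial ones (0 also at an unadjusted p under 0.05 and by DESeq2) fell. Of all genes 12.2% were called higher, 12.0% lower and 24.3% in either direction, and of the 99 members tested 18.2% were called in either direction. The fit over all 15 libraries called 1 member higher and 1 lower. mt-Nd2, a proton-pumping subunit of complex I (MT:3914-4951, plus strand), stood at 6207, 4809 and 5478 CPM in scramble and 7643, 8038 and 8903 CPM in hairpin livers. Its log2 fold change was 0.57 ± 0.11 (SE, edgeR adjusted p = 0.00429). Its neighbour mt-Nd1 (MT:2751-3707, plus strand) stood at 5997, 4941 and 5419.9 CPM and 6828, 6997 and 7393 CPM, with a log2 fold change of 0.37 ± 0.09 (SE, edgeR adjusted p = 0.0167). In both genes the lowest hairpin library lay above the highest scramble library, and the mt-Nd1 call was lost without scramble 3. mt-Nd1 shares 0 and mt-Nd2 8.19% of its 50-base windows with another transcript.

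The other 5 abundant mitochondrial genes had log2 fold changes of 0.26 (mt-Nd6), 0.21 (mt-Nd5), 0.17 (mt-Co1), 0.06 (mt-Nd4) and 0.04 (mt-Cytb), and none passed the test. Of the 5 mostly shared with chromosome 1 copies, mt-Co3 had -0.37 ± 0.35 (SE) with all libraries and 0.37 without scramble 1, which held 152 CPM against 50.2 and 50.5 CPM. mt-Nd4l had -1.20 ± 0.59 with all libraries and 0.18 without scramble 2, and mt-Co2 had 0.79 ± 0.40 and -0.031 without hairpin 1. mt-Atp6 had 0.23 ± 0.10 and mt-Nd3 0.28 ± 0.14, and none of the 5 passed the test. Summing each gene with its copy left 2 members higher and 16 lower. None of these called members was among the genes summed, so this sum could not test their calls. The mitochondrial sum was 54250, 44281 and 48638 CPM in scramble and 57863, 54165 and 60203 CPM in hairpin livers, and overlapped. The nuclear sum was 9982, 9266 and 9563 CPM and 9121, 9287 and 8941 CPM, and overlapped as well. As a plain share of library counts, the mitochondrial genes overlapped and the nuclear genes did not. The ratio of mitochondrial to nuclear counts was 5.43, 4.78 and 5.09 in scramble and 6.34, 5.83 and 6.73 in hairpin livers, without overlap, and this ratio does not depend on the scaling of libraries. The mitochondrial ribosomal RNAs, which carry only short tails and are counted here by what remains after poly(A) selection, did not overlap either: mt-Rnr1 stood at 179, 173 and 139 CPM in scramble and 357, 419 and 471 CPM in hairpin livers, and mt-Rnr2 at 378, 311 and 310.3 CPM and 599, 729 and 881 CPM. In NASH GFP livers mt-Rnr1 stood at 235, 317 and 382 CPM, above every scramble liver and overlapping the hairpin livers. The part of the ribosomal RNA level in the members' values was not tested.

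The nuclear genes that fell were subunits of complexes I, III, IV and V, most of them accessory subunits that surround the catalytic core. By class, 6 of 29 complex I accessory subunits, 3 of 8 nuclear complex III, 5 of 14 complex IV and 2 of 17 complex V members fell, with 0 of 7 complex I core subunits, 0 of 8 assembly factors and 0 of 4 complex II subunits. The 16 calls were 16.2% of the 99 members tested, against 12.0% of all genes called lower. Of the members 36 were lower and 3 higher without overlap, against 20.0% and 20.9% of all genes (41.0% in either direction). Ndufa2, a thioredoxin-fold accessory subunit of complex I, stood at 46.5, 46.9 and 46.0 CPM in scramble and 34.8, 35.7 and 33.0 CPM in hairpin livers, with a log2 fold change of -0.43 ± 0.07 (SE, edgeR adjusted p = 0.00181). Cox8a, a small membrane subunit of complex IV (chr19:7215158-7217616, minus strand), stood at 156, 149 and 149 CPM and 113, 120.4 and 119 CPM, with a log2 fold change of -0.37 ± 0.06 (SE, edgeR adjusted p = 0.00238). Uqcr11, a peripheral subunit of complex III (chr10:80402997-80406830, minus strand), stood at 66.4, 68.8 and 64.3 CPM and 49.2, 51.6 and 42.3 CPM, with a log2 fold change of -0.48 ± 0.08 (SE, edgeR adjusted p = 0.00249). In these 3 genes the hairpin libraries lay below all scramble libraries.

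The next by p were Ndufb7 (-0.35 ± 0.08), Ndufs5 (-0.33 ± 0.07), Cox6a1 (-0.28 ± 0.06), Atp5e, the epsilon subunit of ATP synthase (-0.36 ± 0.08), Ndufa6 (-0.28 ± 0.07), Cox5b (-0.30 ± 0.07) and Uqcrq (-0.27 ± 0.07). Atp5k, the e subunit that helps ATP synthase dimerize, fell by 0.36 on the log2 scale. Ndufa4l2 had the largest log2 fold change of these 16: it stood at 1.61, 1.74 and 1.41 CPM in scramble and 0.796, 0.264 and 0.762 CPM in hairpin livers, with a log2 fold change of -1.39 ± 0.42 (SE, edgeR adjusted p = 0.0352), and it lost its call when any 1 of the 3 scramble libraries or hairpin 2 was left out. It overlaps Shmt2 on the other strand. The remaining 4, Ndufa13, Ndufa7, Uqcr10 and Cox7a2l, had log2 fold changes of -0.24 to -0.19. The 7 complex I core subunits ran from -0.21 to 0.10, with 4 below 0 and 3 above, and none passed. Among them Ndufv1, the NADH-binding subunit, had 0.10 ± 0.06 (SE, edgeR adjusted p = 0.282). Ndufs8, with the smallest p of the core, had -0.21 ± 0.08 (SE, edgeR adjusted p = 0.0876). Uqcrc1 of complex III had -0.04 ± 0.07 (SE, edgeR adjusted p = 0.689) and Atp5a1 of complex V -0.01 ± 0.07 (SE, edgeR adjusted p = 0.915). The complex II subunits ran from -0.08 to 0.00.

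**Figure D4:**
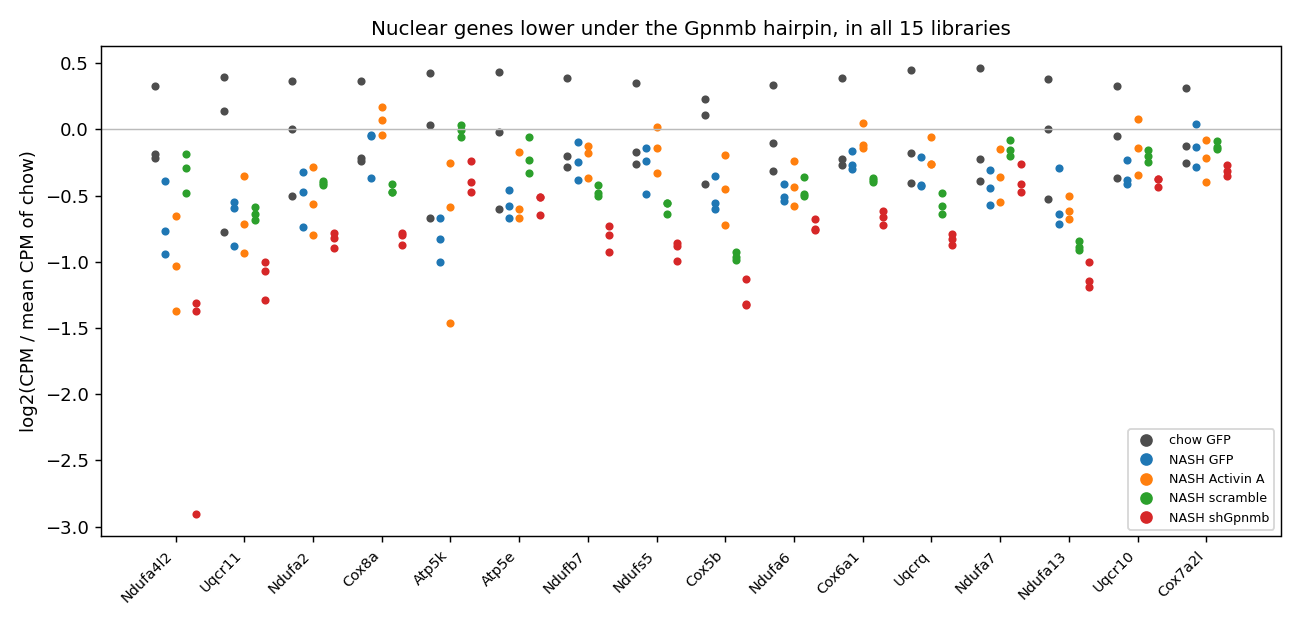
Level of the 16 nuclear genes that fell under the Gpnmb hairpin, in every library, as log2 of CPM over the mean CPM of the chow livers. For Cox8a and Uqcr11 the hairpin libraries lie below the scramble libraries, and for Atp5k they lie above the NASH GFP libraries.

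The genes that fell had short transcripts: their median length in the deposited table was 1121 bases (545 to 4522), against 1908 bases for the other 71 nuclear members tested. Of the 44 nuclear members at or under the members' median length, 12 fell, and of the 43 longer ones, 4 fell, with median log2 fold changes of -0.17 and -0.04. The same lean was present in all protein-coding genes: 216 of 1177 at or under that length fell and 69 rose, against 1477 and 1640 of 11720 longer ones, with medians of -0.13 and 0.01. The part of transcript length in the members' values was not tested. Cox5b, Cox6a1 and Ndufs5 lost their calls without scramble 3, Uqcrq without scramble 1 or hairpin 2, and Cox7a2l when any 1 library was left out. Without scramble 3 the test called 8 members lower and 1 higher, and without scramble 1, 10 lower and 5 higher. Scaled by library size alone, 37 fell and the nuclear median was -0.22, while the median of all genes was -0.11. In these livers 5 of 10 hepatocyte markers rose, to a sum of 85159 to 87958 CPM from 67529.7 to 79661 CPM, and 8 of 12 macrophage markers fell, to 328 to 451 CPM from 643 to 726 CPM; no marker of either list was at 0. In addition 7 of 9 stellate and 3 of 6 endothelial markers fell. Of 5 red blood cell markers, 4 fell and 1 rose. The part of these cells was not tested.

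**Figure D5:**
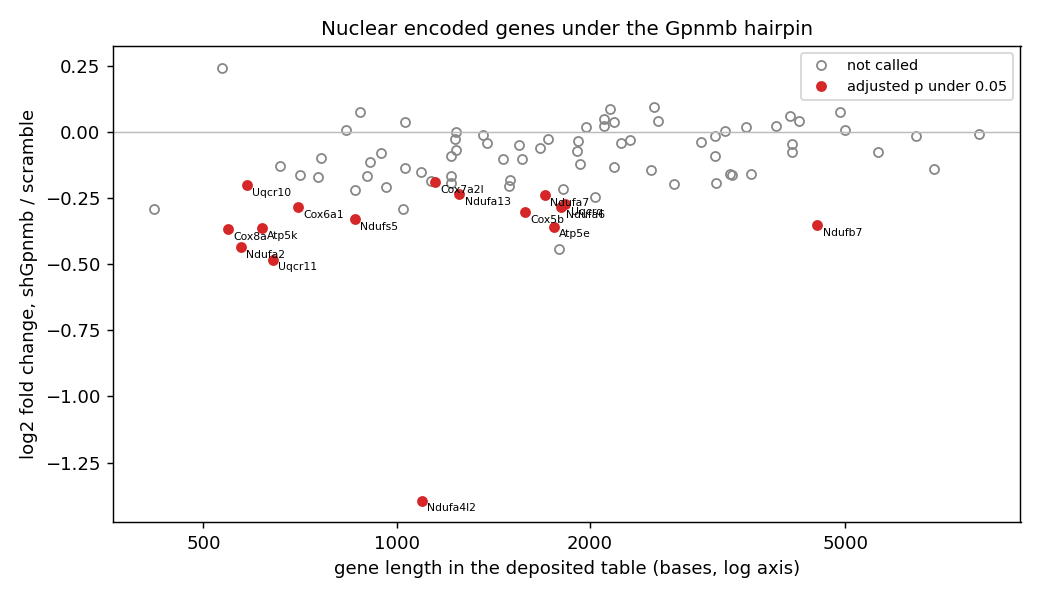
Log2 fold change under the Gpnmb hairpin (vertical axis) against gene length in the deposited table (bases, log axis) for the 87 nuclear members tested; filled points passed the test and carry their names. Ndufb7, at 4522 bases, is the longest of the genes that fell.

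Between the control vectors, 1 member rose. Scramble livers were set against NASH GFP livers, which also serve in the diet and Activin A comparisons, and the scramble livers also serve in the hairpin comparison. Atp5k (chr5:108433244-108434448, minus strand) was the 1 member called of 100 tested (0.132% of all genes called higher, 0.324% in either direction). By edgeR 0 members were lower (0.192% of all genes), and DESeq2 called 6 lower. It stood at 14.2, 12.6 and 15.9 CPM in NASH GFP and 25.1, 24.2 and 25.8 CPM in scramble livers, with a log2 fold change of 0.82 ± 0.11 (SE, edgeR adjusted p = 0.0332), and at 18.1, 21.3 and 19.1 CPM in hairpin livers. The hairpin livers thus lay between the control groups. The call was lost when any 1 library except NASH GFP 3 was left out. Without NASH GFP 3 the test called 2 members higher and 15 lower. Without overlap, 29 members were lower and 9 higher, against 12.9% and 12.3% of all genes (25.2% in either direction). At an unadjusted p under 0.05 there were 7 members higher and 20 lower, with no share of all genes given at that threshold. The medians were 0.01 for mitochondrial and -0.06 for nuclear members. mt-Nd3, whose copy on chromosome 1 is 99.71% identical, stood at 69.6, 43.1 and 57.5 CPM in NASH GFP and 34.3, 23.0 and 24.8 CPM in scramble livers without overlap, with a log2 fold change of -1.05 ± 0.19 (SE, edgeR adjusted p = 0.0658). mt-Nd6 stood at 1962, 1793 and 2478 CPM and 1671, 1314 and 1488 CPM, with -0.47 ± 0.15 (SE, edgeR adjusted p = 0.152). Of the 16 genes that fell under the hairpin, 9 had a log2 fold change above 0 between the vectors and 7 below 0, and Atp5k alone passed the test. Cox5b had -0.45 ± 0.09 and Cox8a -0.30 ± 0.11. Atp5e went the other way, with 0.37 ± 0.10, as did Ndufa7, which stood at 51.0, 56.1 and 46.7 CPM in NASH GFP, 65.5, 62.1 and 60.4 CPM in scramble and 52.1, 57.9 and 49.9 CPM in hairpin livers. In both genes the hairpin values overlapped the NASH GFP values, and both groups lay below scramble.

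Across the 5 groups together, 64 of 100 members differed (edgeR F test, adjusted p under 0.05), against 44.9% of all genes. By complex these were 33 of 51 members of complex I, 3 of 4 of II, 4 of 9 of III, 13 of 17 of IV and 11 of 19 of V, and by genome 7 of 13 mitochondrial and 57 of 87 nuclear members. The 15 nuclear complex IV members summed to 2358 ± 662 CPM (SD, n = 3) in chow, 1859 ± 153 in NASH GFP, 2026 ± 134 in Activin A, 1664 ± 57.0 in scramble and 1497 ± 24.2 CPM in hairpin livers. The hairpin libraries lay below all scramble libraries (log2 ratio of the means -0.15). The scramble libraries lay below all NASH GFP libraries (-0.16) with a narrow gap. Their highest sum was 1729 CPM, against 1735 CPM for the lowest NASH GFP library. The chow and NASH GFP libraries overlapped. The nuclear complex I genes summed to 3015 ± 669 CPM (SD, n = 3) in chow, 2349 ± 209 in NASH GFP, 2534 ± 139 in Activin A, 2246 ± 81.0 in scramble and 2095 ± 57.6 CPM in hairpin livers, where hairpin lay below all scramble libraries, while scramble and chow each overlapped NASH GFP. The 4 complex II genes summed to 1192 ± 148 CPM (SD, n = 3) in chow, 988 ± 64.3 in NASH GFP, 1008 ± 31.0 in Activin A, 923 ± 41.0 in scramble and 893 ± 10.4 CPM in hairpin livers, where chow and NASH GFP did not overlap and scramble and hairpin did. The nuclear complex V genes summed to 4782 ± 738 CPM (SD, n = 3) in chow, 3882 ± 163 in NASH GFP, 4149 ± 161 in Activin A, 3628 ± 139 in scramble and 3557 ± 95.6 CPM in hairpin livers. Scramble lay below all NASH GFP libraries (-0.10), again with a narrow gap (highest scramble 3763 CPM, lowest NASH GFP 3780 CPM), and scramble and hairpin overlapped. The count of members that differed was 30 without the libraries numbered 1, 49 without those numbered 2 and 34 without those numbered 3. The effects of the hairpin and of Activin A, each against its own control, were compared directly in the same fit: 0 members differed in that contrast by edgeR, against 4.04% of all genes (2.14% higher and 1.90% lower). At an unadjusted p under 0.05, for which no share of all genes is given, 7 members were lower and 0 higher. The median difference (hairpin minus Activin A) was -0.20 for nuclear and 0.02 for mitochondrial members.

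Nuclear respiratory chain promoters are known for binding nuclear respiratory factor 1 (NRF1), the ETS factor GABP, estrogen-related receptor alpha and YY1. A RefSeq promoter (GRCm38.p6, 250 bases before to 50 after the start) was matched for 72 of the 88 nuclear members and 27025 genes in all. The NRF1 letters GCGCATGCG, on either strand, were in 13.9% of members' and 1.95% of all genes' promoters, and the ETS letters CCGGAAGT in 6.94% and 4.31%. The estrogen-related receptor letters TCAAGGTCA were in 2.78% and 0.466%, and the YY1 letters ATGGCGGC in 9.72% and 2.61%. At least 1 of these was in the promoters of 23 of the 72 members. Of the 16 genes that fell under the hairpin, 13 had a promoter and 5 of those held any: Uqcr11 (NRF1 and ETS), Cox6a1 and Atp5k (NRF1), Cox8a (ETS) and Ndufa7 (YY1). The sequences upstream of the annotated starts of 2 of them are shown as examples of the letters, at chr10:80406831-80407071 (Uqcr11, minus strand) and chr5:115348982-115349208 (Cox6a1, minus strand). Capitals mark the ETS letters in Uqcr11 and overlapping NRF1 letters of both strands in Cox6a1. The NRF1 letters of the Uqcr11 promoter do not lie within the upstream stretch shown.
Uqcr11: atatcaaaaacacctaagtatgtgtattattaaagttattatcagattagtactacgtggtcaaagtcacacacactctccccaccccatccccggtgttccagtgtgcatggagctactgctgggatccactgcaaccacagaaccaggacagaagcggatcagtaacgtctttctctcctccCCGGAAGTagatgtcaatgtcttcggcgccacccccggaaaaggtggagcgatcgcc
Cox6a1: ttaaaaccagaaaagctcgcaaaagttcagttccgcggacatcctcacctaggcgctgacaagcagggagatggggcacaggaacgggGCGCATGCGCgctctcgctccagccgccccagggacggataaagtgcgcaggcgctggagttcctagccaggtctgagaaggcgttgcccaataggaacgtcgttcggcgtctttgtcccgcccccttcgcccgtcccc
Ndufaf4, which rose under Activin A, also held the NRF1 letters, and Ndufb5 and Ndufaf8, which fell on the diet, held the YY1 letters. Atp5g1, which fell on the diet as well, held none of these letters. A match describes these letters and says nothing of binding.

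Genes that build or feed the chain were counted from lists chosen by function, and ribosome genes, like the members, by name. Their counts are read against the share of all genes called, 12.2% higher and 12.0% lower under the hairpin, and 11.2% and 5.82% on the diet. Under the hairpin, regulators of mitochondrial biogenesis included 3 that rose and 1 that fell of 11 tested: the coactivator Ppargc1a rose by 0.93 ± 0.16 (log2, SE) and the GABP subunit Gabpa by 0.30 ± 0.07, while estrogen-related receptor alpha, Esrra, had -0.45 ± 0.08. Of 25 genes that maintain mitochondrial DNA and RNA, 3 rose and 0 fell, namely the transcription factor Tfb2m (0.58 ± 0.10), the helicase Twnk (0.36 ± 0.08) and the RNA-binding Lrpprc (0.28 ± 0.08); their share is about that of all genes called higher, and the list's median was 0.13 against 0.00 for all genes. Of 37 assembly factors outside the name rule, 1 rose and 3 fell, among them the complex IV factors Coa6 (-0.87 ± 0.12) and Cox14 (-0.42 ± 0.10) and the complex I factor Acad9 (-0.32 ± 0.09). Of 13 ubiquinone synthesis genes 1 rose and 4 fell, and of 77 mitochondrial ribosome genes 0 rose and 4 fell. Tricarboxylic acid cycle genes went both ways under the hairpin, with 3 higher and 3 lower of 14, and of 75 cytosolic ribosome genes 2 rose and 7 fell. On the diet 1 ubiquinone gene, Coq8a (-0.94 ± 0.28), 2 of 77 mitochondrial ribosome genes and 3 of 75 cytosolic ribosome genes fell. Of 14 tricarboxylic acid cycle genes, 2 rose on the diet, Idh2 (1.01 ± 0.15) and Suclg2 (0.55 ± 0.16), and 0 fell. Among 8 carriers, 3 rose on the diet: the uncoupling proteins Ucp2 (2.02 ± 0.21) and Ucp3 (listed at 0 counts in all chow livers, so no fold is given) and the adenine nucleotide translocase Slc25a4 (1.16 ± 0.30). Ucp2, which macrophages also express, had -0.60 ± 0.09 under Activin A and -0.89 ± 0.13 under the hairpin. The heme synthesis factor of complex IV, Cox10, rose by 0.59 ± 0.13 under Activin A, as did isocitrate dehydrogenase subunit Idh3a (0.49 ± 0.12). Cyc1 and Cycs did not pass in any of the 4 comparisons, with list medians of -0.10 on the diet and -0.01 under the hairpin.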

How the data were processed

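Whole-number counts per gene from 15 liver libraries were used as the authors deposited them, in 3 tables of 6 libraries, per the file headers; the NASH GFP libraries are in 2 of them. Beside counts stood log2 fold changes and adjusted p-values from the authors' own tests, per the file headers, and a gene length; in the authors' deposited table, 15 members were lower on the diet, 1 was higher under Activin A, and 3 were higher and 12 lower under the hairpin. The build is GRCm38 (mm10), per the submitters' processing notes; aligner, counter and strand setting: not given in the sources used here, and 36 other per-sample columns were not used. Genes that overlap another on either strand (13 members on the same strand, 33 on the other), such as mt-Nd5 and mt-Nd6, are uncertain.

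Each comparison was fitted with edgeR 4.0.16 (filterByExpr with a minimum count of 10, TMM, quasi-likelihood test, R 4.3.3) over the 6 libraries of its groups, with no covariate, and p-values were adjusted by Benjamini-Hochberg over all genes tested; a gene was called at an adjusted p under 0.05, two-sided. SE is the log2 fold change over the square root of F. Scramble against NASH GFP, and the fit over 15 libraries, used the tables joined on gene identifier; the contrasts against chow, the difference of effects and the sums with chromosome 1 copies were added after seeing the data. The test was run on simulated data. Named genes were all mitochondrial and complex II members, up to 10 called members per direction and comparison, the member with the smallest p of a class with no call, the highest per length of a complex, isoform pairs and up to 3 called genes per list; Ndufv1 and Uqcrc1, Ndufs6, mt-Rnr1 and mt-Rnr2 were chosen after their values were seen. Members and lists were chosen with earlier results of these data known. Within a group, libraries were further apart than counting noise (chi-square per degree of freedom at least 5.54). Deviations of same-numbered libraries had correlations between -0.17 and 0.09, so no block was used. DESeq2 1.42.0 and limma 3.58.1 were alternatives. Shared sequence was searched in GENCODE M21 transcripts.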

Additional observations from a re-analysis of the deposited data

How the results depend on the processing

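Each group holds 3 libraries, which sets the precision. With library size alone as the scale, members lower on the diet numbered 0 (medians -0.19 mitochondrial, -0.13 nuclear), members higher under Activin A 0, and members lower under the hairpin 37 (nuclear median -0.22). DESeq2 called 19 lower on the diet and, between the control vectors, 2 higher and 6 lower. Without a filter on low counts 10 were lower on the diet and 4 between the vectors. The fit over 15 libraries called 48 lower on the diet, 1 higher and 1 lower under the hairpin, and 0 higher between the vectors. RLE size factors, scaling from genes off the mitochondrial chromosome and limma voom kept every count within 1.5 times its value. So did the sums with chromosome 1 copies, but no member that edgeR called in these comparisons was among the genes summed. The cause of the other differences was not tested.

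Leaving out 1 library in turn gave, on the diet, 0 to 23 members lower (medians -0.55 to -0.37 mitochondrial, -0.57 to -0.19 nuclear) and, under Activin A, 0 to 4 higher (mitochondrial median 0.077 to 0.33). Under the hairpin it gave 1 to 5 higher and 8 to 14 lower. Between the vectors it gave 0 to 2 higher and 0 to 15 lower, with a mitochondrial median of -0.12 to 0.025 that turned below 0 without scramble 1; the nuclear median ran from -0.11 to 0.02. Across the 5 groups, leaving out the 5 libraries of 1 replicate number in turn gave 30 to 49. mt-Co3 ran from -0.64 to 0.37 under the hairpin, above 0 without scramble 1.

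Correlations of the deviations of same-numbered libraries lay between -0.17 and 0.09, and those of differently numbered libraries reached 0.22. Deviations from the mean of 3 libraries sum to 0, so this check cannot exclude a pairing. With the replicate number as a block, 0 members were lower on the diet, 11 lower and 2 higher under the hairpin, 1 higher under Activin A, 1 higher and 1 lower between the vectors, and 54 differed across the groups.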
